A study of Ovis aries with 7 samples.

Results

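VEGFA, KDR and TEK, a vascular growth factor and a pair of endothelial receptors, were measured with 9 array probes in the hypothalamus of 7 late-gestation sheep fetuses. They are 3 of 847 genes that could be named on the array; VEGFA had 2 probes, KDR 4 and TEK 3, out of 15008 non-control probes. All probes of each gene were taken by gene name; KDR and TEK do not stand under those symbols on this array. The KDR probes were found under the locus name LOC443087 (2 probes) and the synonym VEGFR-2 (2 probes). The TEK probes were found under LOC443516 (2 probes), which the file describes as the tie-2 receptor, and under the older name tie2 (1 probe).

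All 7 fetuses carried chronic catheters, and each gave 1 hypothalamus and 1 array. In the hypoxia group (3 fetuses) the ewe inhaled gas of low oxygen tension for 30 min and then returned to normal oxygen for 30 min, so tissue was taken 60 min after the onset. In the control group (4 fetuses) oxygen was normal over both periods. Gestational age beyond the late stage, and whether any fetuses were twins, are not given in the sources used here. For hypothalamic identity, 11 peptide genes on the array were looked up, each counted by its best probe. Of these 10, including OXT, GHRH, AGRP and PMCH, had a probe well above background on all 7 arrays. GHRL, a peptide made chiefly in the stomach, was above it on 0. Most probes were above background on all 7 arrays (11411 of 15008 non-control probes). The count of peptide genes therefore says little about tissue identity.

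VEGFA is a secreted growth factor that makes vessels sprout and leak, and its gene is a textbook target of the hypoxia-inducible transcription factors. KDR, also called VEGFR-2, is the receptor tyrosine kinase through which endothelial cells read VEGFA. TEK, also called TIE2, is the endothelial receptor of the angiopoietins: ANGPT1 activates it and keeps vessels quiet and tight, whereas ANGPT2 usually competes with ANGPT1. In brain, neurons and glia make much of the VEGFA, while both receptors lie mainly on the vessels.

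Values are levels on a log2 scale: the processed signal of a probe minus the 75th percentile of its array, so that a level of 0 is the signal at that percentile. The percentile lay between 2024 and 2908 signal units, and 77.2% to 86.4% of spots were well above background. The 3 hypoxia arrays lay on 1 slide and the controls on another 2, so slide and group cannot be told apart. Differences are hypoxia minus control with the standard error (SE) from limma, and adjusted p-values are by Benjamini-Hochberg over 12710 tested probes. The p-values measure the spread between these 7 fetuses only. Of all tested probes 2, or 0.0157%, passed an adjusted p of 0.05, and 1 of them (0.00787%) was lower after hypoxia.

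No probe of VEGFA, KDR or TEK passed the adjusted threshold (0 of 9, beside 0.0157% of all tested probes). The KDR and TEK probes were lower on average after hypoxia, by 0.14 to 0.62 on the log2 scale, with 3 of these 7 at an unadjusted p under 0.05, while the VEGFA probes differed by -0.06 and -0.22. All 9 differences were below 0, beside 45.3% of all tested probes. The 3 probes with an unadjusted p under 0.05, all lower, stand beside 6.91% of tested probes that were lower at that p and 15.7% in either direction. Probes of 1 gene read the same RNA and some overlap, so the 9 are not independent.

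**Figure D1:**
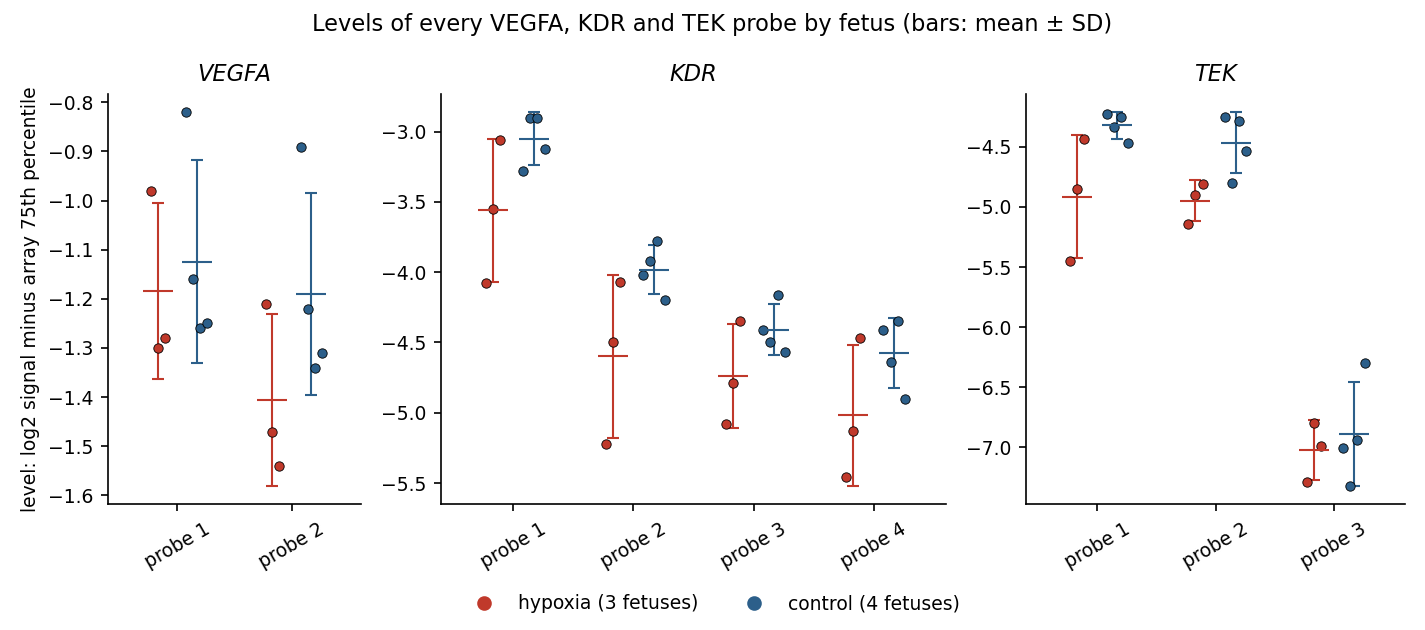
Level of each probe (log2 signal minus the array's 75th percentile, a different vertical range in each panel) in 3 hypoxia fetuses (red) and 4 control fetuses (blue), with the group mean and SD as bars. Control values of KDR probe 1 lay between -3.28 and -2.90, while the hypoxia fetuses spread from -4.08 to -3.06.

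VEGFA was read by 2 probes that start 1 base apart in the same messenger RNA record and share 59 of their 60 bases, so they amount to a repeat of 1 measurement. The first is printed with the shared bases in capitals, to show how nearly the second repeats it.
VEGFA probe 1: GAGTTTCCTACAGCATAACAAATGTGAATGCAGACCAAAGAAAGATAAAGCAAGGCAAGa
VEGFA probe 1 had levels of -0.98, -1.30 and -1.28 in hypoxia replicates 1 to 3, and of -0.82, -1.16, -1.26 and -1.25 in control replicates 1 to 4. The groups overlapped over most of their range, and the highest fetus of all was control replicate 1. The means were -1.18 ± 0.18 (SD, n = 3) after hypoxia and -1.12 ± 0.21 (SD, n = 4) in controls. The log2 difference was -0.06 (SE 0.15, limma adjusted p = 0.873). Its 95% confidence interval ran from -0.41 to 0.29, that is from 1.33-fold lower to 1.22-fold higher. This interval is for 1 probe before adjustment and is not a limit of detection, so a change of VEGFA is not excluded.

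VEGFA probe 2 had levels of -1.21, -1.47 and -1.54 after hypoxia and of -0.89, -1.22, -1.34 and -1.31 in controls. Here too the lowest pair were hypoxia replicates 2 and 3, and hypoxia replicate 1 lay inside the control range. The log2 difference was -0.22 (SE 0.15, limma adjusted p = 0.494), with a 95% interval from -0.56 to 0.13. Processed signals of probe 1 were 896 to 1320 units on the 7 arrays, all well above background. The sign of the probe 1 difference was not stable: without control replicate 1 it was 0.04, and against the controls of slide 3 alone it was 0.07. The controls of the other slide lay 0.26 above those of slide 3 for this probe, more than the difference between the groups.

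KDR was read at 3 separate stretches. Probes 1 and 2 come from 1 expressed sequence tag and do not overlap, starting at bases 597 and 519 of it, while probes 3 and 4, at bases 422 and 442 of a partial coding sequence record, share 40 bases. The 3 stretches are printed to show that the values rest on different sequence; capitals in probe 3 mark what it shares with probe 4.
KDR probe 1: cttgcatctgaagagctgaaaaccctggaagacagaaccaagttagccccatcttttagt
KDR probe 2: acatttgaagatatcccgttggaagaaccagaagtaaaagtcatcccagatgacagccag
KDR probe 3: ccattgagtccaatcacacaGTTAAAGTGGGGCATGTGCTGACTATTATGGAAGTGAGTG
KDR probe 1, the brightest of the gene, had levels of -4.08, -3.55 and -3.06 in hypoxia replicates 1 to 3. In control replicates 1 to 4 it had -3.28, -2.90, -2.90 and -3.12. Hypoxia replicates 1 and 2 were below every control, and hypoxia replicate 3 lay among the controls. The means were -3.56 ± 0.51 (SD, n = 3) and -3.05 ± 0.19 (SD, n = 4), a log2 difference of -0.51 (SE 0.24), or 1.42-fold lower. The limma adjusted p was 0.345, and the 95% interval ran from -1.06 to 0.04.

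The other KDR probes ordered the fetuses in nearly the same way. Probe 2 had -5.22, -4.50 and -4.07 after hypoxia against -4.02, -3.92, -3.78 and -4.20 in controls, a log2 difference of -0.62 (SE 0.26, limma adjusted p = 0.311). Probe 3 had -5.08, -4.79 and -4.35 against -4.41, -4.50, -4.16 and -4.57, a difference of -0.33 (SE 0.19, limma adjusted p = 0.425). Probe 4 had -5.46, -5.13 and -4.47 against -4.41, -4.64, -4.35 and -4.90, a difference of -0.44 (SE 0.25, limma adjusted p = 0.416). On all 4 probes hypoxia replicate 1 was the lowest of the 7 fetuses, replicate 2 was second lowest and replicate 3 was within the control range. Between KDR probes, Pearson's r over the 7 arrays was 0.854 to 0.972, given as a description of probes that share arrays.

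TEK was read by a pair of probes that start at bases 63 and 70 of 1 record and share 53 bases, and by probe 3 from another record. Probes 1 and 3 are printed because they come from different records. Capitals in probe 1 mark what it shares with probe 2.
TEK probe 1: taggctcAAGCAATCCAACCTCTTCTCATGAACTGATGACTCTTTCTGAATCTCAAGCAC
TEK probe 3: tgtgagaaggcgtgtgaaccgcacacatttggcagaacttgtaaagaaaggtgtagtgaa
TEK probe 1 had levels of -5.45, -4.85 and -4.43 in hypoxia replicates 1 to 3. In control replicates 1 to 4 it had -4.23, -4.33, -4.25 and -4.47. The controls kept within a narrow band, hypoxia replicates 1 and 2 were below it, and replicate 3 was just above the lowest control. The means were -4.91 ± 0.51 (SD, n = 3) and -4.32 ± 0.11 (SD, n = 4). The log2 difference was -0.59 (SE 0.22), or 1.51-fold lower, with a 95% interval from -1.12 to -0.07 and a limma adjusted p of 0.279.

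TEK probe 2 had -5.14, -4.90 and -4.81 after hypoxia against -4.25, -4.80, -4.28 and -4.53 in controls. It was the 1 probe of the 9 whose groups did not overlap, beside 7.39% of tested probes with every hypoxia fetus below every control, and the gap between hypoxia replicate 3 and control replicate 2 was small. The log2 difference was -0.48 (SE 0.16, limma adjusted p = 0.250). TEK probe 3 was well above background on 3 of 7 arrays only, with signals of 12.7 to 30.2 units, beside 59.4 to 153 for probe 1. Its levels were -7.29, -6.80 and -6.99 after hypoxia and -7.01, -7.32, -6.94 and -6.30 in controls, which overlapped throughout. The difference was -0.14 (SE 0.25, limma adjusted p = 0.818), and it turned to 0.03 with normexp background correction.

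**Figure D2:**
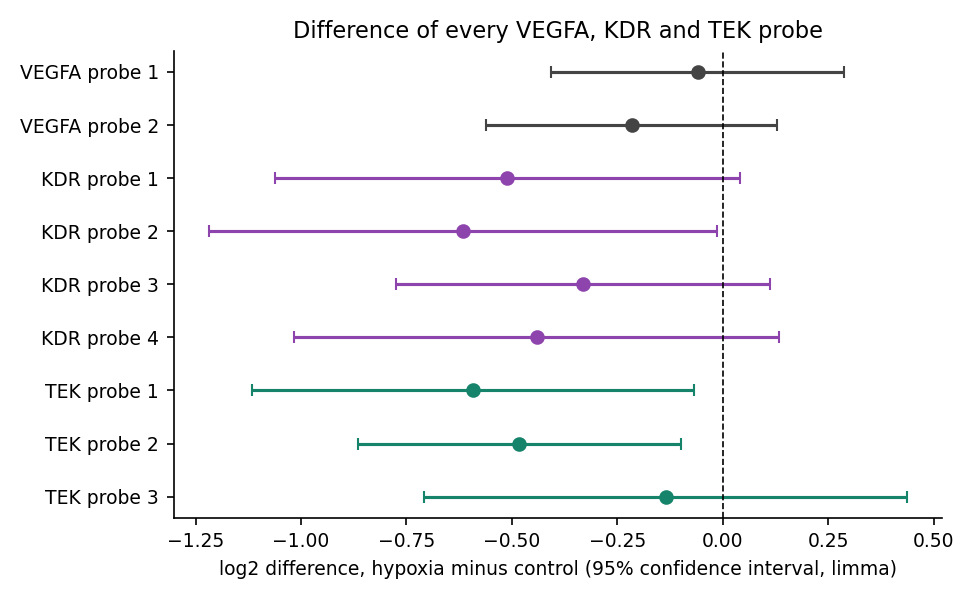
Log2 difference (hypoxia minus control, horizontal axis) of each probe with its 95% confidence interval from limma. All 9 points lie left of 0; the intervals of KDR probe 2 and TEK probes 1 and 2 do not reach 0 before adjustment for the 12710 tests.

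The size of the KDR and TEK differences depended on single fetuses. Hypoxia replicate 1 was the lowest array on 6 of the 7 KDR and TEK probes. Without it the log2 difference of KDR probe 1 was -0.25 and that of TEK probe 1 was -0.32. Without hypoxia replicate 3, the highest hypoxia fetus on 6 of the 7 probes, they were -0.76 and -0.83. The background correction also changed the size: normexp gave -0.22 for TEK probe 1 and -0.28 for TEK probe 2. For KDR probes 1 to 4 it gave -0.39, -0.33, -0.16 and -0.15. Normexp was run with an added offset of 50 units, beside signals of 59.4 to 153 for TEK probe 1. That setting also started from mean spot signals and their median background instead of the processed signal. What made the differences smaller was not tested. Over 19 alternatives the difference stayed below 0 for KDR (-0.76 to -0.25) and TEK (-0.83 to -0.22), and 0 of these fits passed an adjusted p of 0.05, the lowest being 0.213 for KDR and 0.194 for TEK. VEGFA ranged from -0.19 to 0.07.

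How closely KDR and TEK levels went together from fetus to fetus depended on the TEK probe. Over the 7 arrays, Pearson's r of the 4 KDR probes with TEK probe 1 was 0.928 to 0.983, with TEK probe 2 it was 0.629 to 0.793, and with the dim TEK probe 3 it was 0.0242 to 0.221. Between the VEGFA probes and the KDR and TEK probes it ran from -0.427 to 0.415 over 14 pairs. On VEGFA probe 1 and on the first probes of both receptors, hypoxia replicate 1 was lowest for the receptors and second highest for VEGFA. The 7 points share arrays, slides and the group difference, and the values are descriptions.

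Both receptors were next set against the other endothelial genes of the same arrays. In bulk tissue, fewer cells of a type and less RNA per cell cannot be told apart. Of 36 endothelial markers listed, 12 were on the array and 11 were tested. The 11 include KDR and TEK, so their count and median partly describe these receptors themselves. After hypoxia 8 were lower and 3 higher (46.2% of the named genes were lower). The median log2 difference was -0.26 (-0.12 without hypoxia replicate 1), beside 0.03 over all tested probes and over 744 named genes. None of the markers passed the adjusted threshold (limma, 0 of 11). An unadjusted p under 0.05 was found for 2, TEK, which was lower, and ROBO4, which was higher, beside 16.7% of the named genes. The 3 lowest were SELP, the adhesion molecule P-selectin, TEK and KDR. The 3 highest were FLT1 (by its brightest probe, while 2 of its 5 probes were below 0), ROBO4, a guidance receptor of endothelium, and OCLN, a tight junction protein.

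ROBO4 had levels of -3.63, -3.25 and -3.35 after hypoxia and of -3.68, -3.78, -3.75 and -3.63 in controls, a log2 difference of 0.30 (SE 0.12, limma adjusted p = 0.295). OCLN had a difference of 0.10 (SE 0.23), and its direction turned when control replicate 1 or hypoxia replicate 2 was left out. PECAM1, a junction protein of all endothelium, had levels of -0.89, -0.25 and -0.36 against 0.11, -0.40, -0.14 and -0.55, with a difference of -0.26 (SE 0.21, limma adjusted p = 0.577). SELP had -1.17 (SE 1.03) and was well above background on 5 arrays, with levels from -9.32 to -4.39, so its value carries little weight.

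The 9 endothelial markers other than KDR and TEK, each centred on its own mean, averaged -0.59, 0.35 and -0.08 in hypoxia replicates 1 to 3. In control replicates 1 to 4 they averaged 0.11, 0.09, 0.20 and -0.08. SELP carried much of that spread: the 8 markers without it, a choice made after the data were seen, averaged -0.29, 0.15 and 0.02 after hypoxia and 0.06, -0.05, 0.16 and -0.05 in controls. Hypoxia replicate 1 was the lowest of the 7 with and without SELP, while replicate 2, low for KDR and TEK, was not low for these markers. Relative to these markers KDR was -0.22, -0.63 and 0.30 after hypoxia and -0.13, 0.28, 0.17 and 0.23 in controls, a difference of -0.32 (exact permutation test, 2-sided, p = 0.343). TEK was -0.29, -0.63 and 0.22 against 0.23, 0.15, 0.13 and 0.18, a difference of -0.40 (exact permutation p = 0.229). The smallest p that 35 splits of 7 fetuses allow is 0.0571, so this test could not pass 0.05. Without SELP the differences were -0.44 for KDR and -0.53 for TEK, given as values only.

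Markers of meninges and fibroblasts were also lower on average after hypoxia, though control replicate 2 was among the lowest fetuses. Of 16 listed 8 were measured, all 8 lower after hypoxia (7 without control replicate 4), beside 46.2% of the named genes. The median log2 difference was -0.63 (-0.34 without hypoxia replicate 1), with 0 of 8 past the adjusted threshold (limma). Their mean, each gene centred, was -0.83, -0.32 and 0.00 in hypoxia replicates 1 to 3 and 0.28, -0.44, 0.43 and 0.87 in control replicates 1 to 4. None of the 8 was at background on all arrays. Astrocyte markers went the other way, with 6 of 7 higher, beside 400 of 744 named genes, and 0 past the adjusted threshold (limma). Their centred mean was 0.32, 0.03 and 0.23 after hypoxia against -0.24, 0.05, -0.28 and -0.11 in controls. Like the other lists, both were chosen with earlier results of these data known, so their counts are descriptions only. Pituitary markers (6 tested, 4 higher and 2 lower) and erythroid markers (3 tested, 1 higher and 2 lower) had 0 past the adjusted threshold (limma). Single genes of both were uneven between fetuses. The pituitary hormone gene PRL was at 1.13 in control replicate 4 and from -3.80 to -3.46 in the other controls. The globin gene HBB ran from 2.03 to 5.20 over the 7 fetuses. The part of any of these lists in the KDR and TEK differences was not tested. The list of pericyte and smooth muscle markers had 1 measured gene, the contractile protein gene CNN1, with a log2 difference of 0.10 (SE 0.42) and levels from 0.34 to 2.23.

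**Figure D3:**
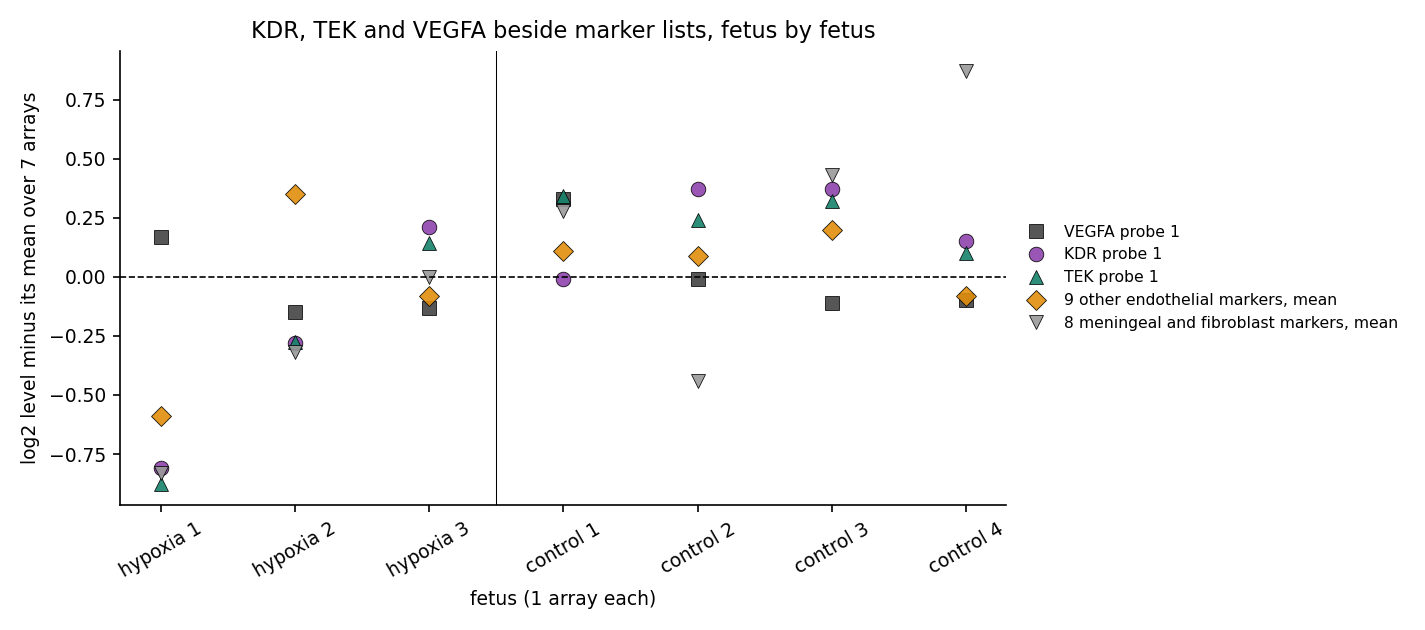
Log2 level minus its mean over 7 arrays (vertical axis) for the brightest VEGFA, KDR and TEK probes and for the mean of 9 other endothelial and 8 meningeal and fibroblast markers, by fetus. KDR and TEK are both lowest in hypoxia replicate 1, lie furthest from each other in control replicate 1, and are below the other endothelial markers in hypoxia replicates 1 and 2.

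The rest of the VEGF family had differences of both signs. Of 11 listed ligands, receptors and co-receptors 6 were measured, VEGFA and KDR among them. Of the others PGF and NRP1 were lower, and FLT1 and NRP2 higher, by their brightest probes. With VEGFA and KDR counted, 4 of the 6 were lower and 2 higher, beside 46.2% of the named genes lower. The median log2 difference of the 6 was -0.08, with 0 past the adjusted threshold (limma). That median changed sign with the arrays used and was 0.003 without hypoxia replicate 3. PGF, the placental growth factor that binds FLT1, had a difference of -0.11 (SE 0.29), which turned in 2 of the 7 fits that left out 1 array, to 0.15 without control replicate 2.

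FLT1, the decoy and signalling receptor that binds VEGFA more tightly than KDR does, had 5 tested probes that disagreed in sign. The brightest comes from a record described as the soluble form and gave 0.32 (SE 0.26, limma adjusted p = 0.557), and a dimmer probe of that record, well above background on 3 arrays, gave 0.94 (SE 0.48). A probe of another FLT1 record gave 0.56 (SE 0.18, limma adjusted p = 0.244). Both probes of the remaining record gave values below 0, -0.28 (SE 0.13) and -0.53 (SE 0.24), the latter also well above background on 3 arrays only. The counts of higher genes above take FLT1 by its brightest probe, and its probes as a whole give no single direction. A probe from the soluble record may lie in sequence that the membrane form shares.

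The neuropilins, co-receptors that hold VEGFA beside KDR, had opposite differences. NRP1 had levels of 0.06, 0.33 and 0.43 after hypoxia and 0.53, 0.72, 0.95 and 0.61 in controls, and the groups did not overlap, beside 15.2% of named genes whose groups did not overlap in either direction. Its difference was -0.43 (SE 0.14, limma adjusted p = 0.250), from 1 probe, and it stayed below 0 with any single array left out. NRP2 had levels of -5.41, -5.53 and -5.02 against -5.77, -5.33, -6.01 and -5.78, a difference of 0.40 (SE 0.19, limma adjusted p = 0.354), and 2 further probes gave 0.25 and 0.30.

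On the TEK side, the ligands had differences of opposite sign, and neither passed the adjusted threshold. ANGPT1, the activating ligand, had levels of -2.14, -2.26 and -1.55 after hypoxia and -2.71, -3.18, -2.39 and -2.54 in controls. Every hypoxia fetus was above every control, beside 15.2% of named genes whose groups did not overlap in either direction. The log2 difference was 0.72 (SE 0.24), or 1.65-fold higher, with a limma adjusted p of 0.244. It rests on 1 probe and was 0.51 to 0.86 when single arrays were left out. ANGPT2 had levels of -2.41, -2.28 and -2.88 against -2.11, -2.34, -1.94 and -2.62, a difference of -0.27 (SE 0.21, limma adjusted p = 0.544), and 3 further probes lay between -0.29 and -0.02. TIE1, the orphan relative that pairs with TEK, had a difference of -0.29 (SE 0.17, limma adjusted p = 0.425) and its second probe gave -0.42. Of 9 genes listed for this branch 4 were measured, TEK among them. Of these 3 were lower, TEK included, and 1 higher, beside 46.2% of the named genes lower.

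**Figure D4:**
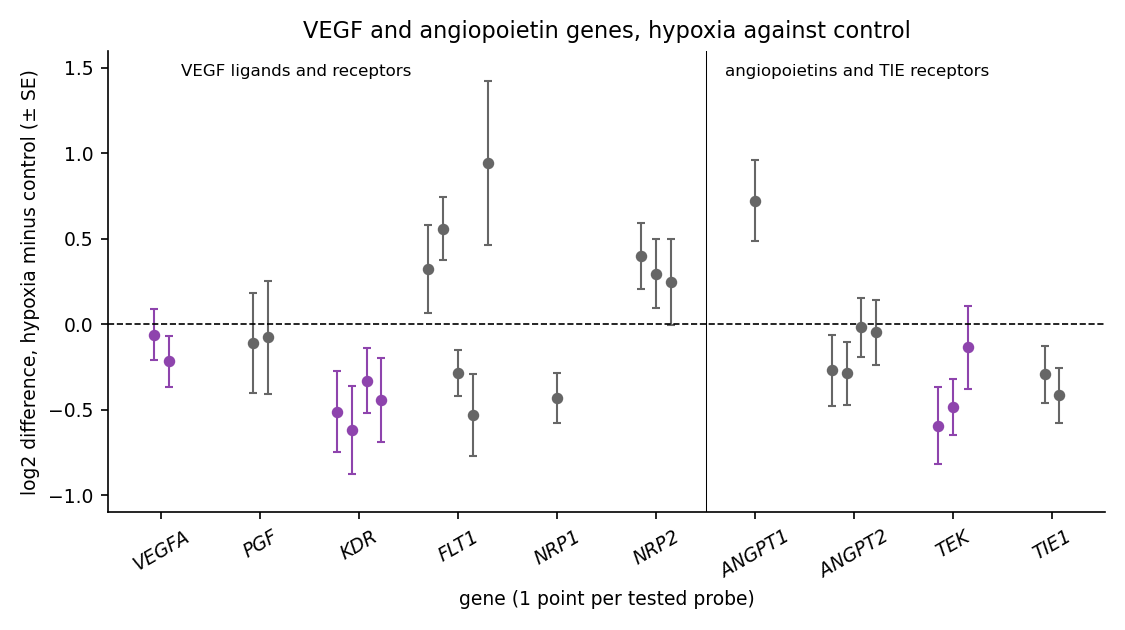
Log2 difference, hypoxia minus control (vertical axis, ± SE), of every tested probe of the VEGF and angiopoietin genes, with VEGFA, KDR and TEK in purple. ANGPT1 stands at 0.72, the KDR probes lie between -0.62 and -0.33, and the 5 FLT1 probes fall on both sides of 0.

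Downstream of the receptors, 5 of 39 listed genes were measured, 4 lower and 1 higher, or 5 and 0 with median scaling. Beside them 46.2% of the named genes were lower, and 0 of 5 passed the adjusted threshold (limma). NOS3, the endothelial nitric oxide synthase that VEGFA signalling switches on, had levels of -3.20, -2.53 and -2.57 after hypoxia and -2.32, -2.50, -2.38 and -2.55 in controls. Its difference was -0.33 (SE 0.18, limma adjusted p = 0.401), and like the receptors it was lowest in hypoxia replicate 1. RCAN1, a calcineurin inhibitor induced by VEGFA in endothelium, had -0.25 (SE 0.12, limma adjusted p = 0.350). AKT1, a survival kinase, had -0.17 (SE 0.16), BAD, a death factor that AKT1 phosphorylates, -0.07 (SE 0.11), and RAC1, a motility GTPase, 0.03 (SE 0.10), whose sign turned under 1 of 5 other scalings.

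Upstream of VEGFA, 6 of 11 listed genes of the hypoxia-inducible factors and their regulators were measured, 3 higher and 3 lower, or 6 and 0 with normexp background correction, again with 0 past the adjusted threshold (limma). CITED2, which competes with these factors for their coactivator, had levels of -2.47, -2.35 and -2.42 after hypoxia and -2.84, -2.79, -2.74 and -2.91 in controls. The groups did not overlap, beside 15.2% of named genes whose groups did not overlap in either direction. The difference of CITED2 was 0.41 (SE 0.09, limma adjusted p = 0.162). On the VEGFA probes the same groups overlapped. HIF1A, the oxygen-regulated subunit, had 0.17 (SE 0.18), and its endothelial relative EPAS1 had -0.18 (SE 0.16), with other probes from -0.06 to 0.85. HIF3A had -0.10 (SE 0.22) and ARNT2 -0.10 (SE 0.19); the signs of EPAS1, HIF3A and ARNT2 each turned with normexp background correction. ARNT, the constitutive partner, had 0.78 (SE 0.69), with 1 control at -8.53 and 0.12 without it.

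Among vasoactive factors 9 of 13 tested genes were higher and 4 lower, beside 400 of 744 named genes higher. The split was 7 and 6 under quantile normalization, and 0 passed the adjusted threshold (limma). EDN1, the vasoconstrictor endothelin, had levels of -0.89, 0.14 and -0.50 after hypoxia and -1.70, -1.55, -1.29 and -2.29 in controls, a difference of 1.29 (SE 0.30, limma adjusted p = 0.163). NPPC, the C-type natriuretic peptide of endothelium, had 0.74 (SE 0.22, limma adjusted p = 0.214). The lowest were NOS3 and ECE1, the enzyme that activates endothelin, at -0.29 (SE 0.16).

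Genes most like each member were ranked by Pearson's r over the 7 arrays among 743 other named genes. Nearest to VEGFA were TRAF3 (0.965), CYGB (0.914), PYGB (0.878), NDUFA12 (0.86) and GRIA4 (0.855), with log2 differences between hypoxia and control of -0.16 to -0.04. Nearest to KDR were BGN (0.948), CLN6 (0.943), TEK (0.928), GJA4 (0.922) and GPD2 (0.92). Nearest to TEK were FCER1A (0.978), GJA4 (0.975), COL3A1 (0.955), DNMT1 (0.931) and NOS3 (0.931). The genes nearest to KDR and TEK had differences from -1.59 to -0.25, and the largest of these, FCER1A, was well above background on 5 arrays. GJA4, a connexin of arterial endothelium, was in both groups of neighbours, and KDR itself stood at 0.928 with TEK. With 7 points and 743 genes, high values of r occur for many genes, and the ranking is a description. Because r was taken over both groups, genes close to KDR or TEK tend to share their direction, which is no separate result.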

How the data were processed

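Per the labels' protocols, Cy3-labelled hypothalamic RNA of 7 fetuses was put on 1-colour Agilent sheep arrays. Agilent Feature Extraction 10.1.1.1 made the spot intensity values, per the file headers, with background subtraction, detrending and a surrogate for signals not above background. The deposited log2 table equals the log2 of that signal within 5e-09, unscaled. Levels are log2 processed intensities minus each array's 75th percentile over non-control spots; 62 outlier spot values were left out and spots of a probe averaged. The 12710 of 15008 probes seen well above background on 3 or more of the 7 arrays were compared with limma 3.58.1 in R 4.3.3 (lmFit, eBayes, 2-sided, Benjamini-Hochberg at 0.05), which was tested on simulated data. A gene's value is its brightest probe on average.

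Names came from accessions, gene IDs, symbols and synonyms of the RefSeq table of ARS-UI_Ramb_v3.0, used for names only, and from older names in the files; 1376 probes were named. Coordinates are not given, because the files hold none. Named were every member probe, every measured gene of pathway lists with up to 6 (otherwise the 2 highest and 2 lowest), the 3 highest and 3 lowest endothelial and pericyte markers and the 5 genes most correlated with each member; PECAM1 was added after its values were seen. The members and lists were chosen with earlier results of these data known. Alternatives were other scalings, background corrections, filters and probe rules, slide and replicate blocks, single control slides and leaving out each array. The number of arrays limits the precision.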

Additional observations from a re-analysis of the deposited data

How the results depend on the processing

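In none of the fits did VEGFA, KDR or TEK pass an adjusted p of 0.05. VEGFA's difference turned from -0.06 to 0.072 with the controls of slide 3 alone and to 0.042 without control replicate 1, and over the left-out arrays it ranged from -0.16 to 0.042. TEK probe 3 turned from -0.14 to 0.031 with normexp background and 0.14 with the controls of slide 2 alone, and over the left-out arrays it ranged from -0.28 to 0.063, the last without control replicate 4. The median of the VEGF list turned from -0.08 to 0.11 with the controls of slide 3 alone, and over the left-out arrays it ranged from -0.19 (without hypoxia replicate 1) to 0.038 (without control replicate 2), with 0.003 without hypoxia replicate 3. The cause was not tested for any of these.

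The count of probes past the adjusted threshold, 2, was 0 with the percentile taken on probes detected everywhere, 0 with no filter, 10 with normexp background, 10 with the deposited values, 25 with probes above background on all 7 arrays, 232 with the controls of slide 2 alone and 4 with those of slide 3 alone; leaving out single arrays gave 0 to 6. At an unadjusted p under 0.05 limma gave 2022 probes where the percentile was taken on probes detected everywhere and 1947 with no filter.

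Replicate numbers 1 to 3 occur in both groups, but the labels name no pairs, so the numbers were not taken as pairs. Correlations of deviations between same-numbered fetuses were 0.121, 0.0878 and 0.107. No values for fetuses of different number stand beside these, so they cannot decide whether the numbers are pairs. With the number as a replicate block, fitted on 6 fetuses, 0 probes passed (2131 at an unadjusted p under 0.05), VEGFA was -0.10, KDR -0.53 and TEK -0.64, and TEK probe 3 turned to 0.063. Slide as a random block gave an estimated correlation of -0.0318 and 2 calls. All hypoxia arrays lay on 1 slide, so this fit cannot tell a slide effect from the group difference.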
